A study of Sus scrofa with 2 samples.

Results

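S-phase thymocytes of the pig were described from 1 droplet library of total thymocytes. These are cells that held transcripts of DNA replication but hardly any transcript of mitosis. They were chosen by their unique molecular identifiers (UMIs, counts of captured transcripts). A cell was taken when PCLAF, TK1, CDT1, MCM5 and UHRF1 together gave at least 5 UMIs, when UBE2C, CDC20, CENPF, CCNB2 and TPX2 together gave at most 1, and when HBB gave fewer than 100. The rule kept 352 of the 8026 total thymocytes that passed the quality filter, or 4.39% (exact 95% interval 3.95 to 4.86%). They were set against the 4567 cells of the same library in which these 10 cycle genes and HBB were all at 0, called non-dividing cells here.

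In S phase a cell copies its genome. Before it, CDC6 and CDT1 load the MCM helicase onto replication origins. During it, the PCNA clamp tethers the polymerases, enzymes such as TK1 and DUT keep the nucleotide pools in order, and UHRF1 brings the methyltransferase DNMT1 to newly copied DNA. In the mouse thymus, most division follows assembly of the pre-T cell receptor, the surface complex of a rearranged beta chain with the invariant chain made by PTCRA. The recombinase genes RAG1 and RAG2 are known there to be active in waves before and after these divisions, first for the beta chain and later for the alpha chain in resting cells that carry both CD4 and CD8.

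The donors were 2 untreated mixed-breed pigs, aged 22 weeks, and cells of both pigs went into each library, so that no animal can be told from another. Live cells were sorted by flow cytometry before loading on the 10x Genomics 3′ platform. The first library held total thymocytes, which supplied the S-phase cells, the G2/M-phase cells and the non-dividing cells. The second held invariant natural killer T (iNKT) thymocytes, an innate-like T cell kind taken from the same thymi by positive selection on magnetic beads. With 1 library per group there was no replicate check and no test between groups. All intervals below are exact 95% intervals that cover counting error only. Levels are the UMIs of a gene per 1000000 UMIs summed over the cells of a group (CPM). A gene is called higher or lower where the ratio of 2 CPM values is at least 2 or at most 0.5. A level is thus a share of UMIs, and a lower level need not mean fewer transcripts per cell where depths differ.

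After the filter the total thymocyte library held 8026 of 9112 barcodes and the iNKT library 11273 of 12097. The 2 libraries shared 41 barcodes, of which 2 belonged to S-phase cells. The S-phase cells held 2584144 UMIs, with a median of 6502.5 per cell (978 to 22609) and a median of 2097.5 genes. Non-dividing cells held 10398810 UMIs, with a median of 1908 per cell and 938 genes. Mitochondrial genes took a median of 5.38% of UMIs in S-phase cells and 5.75% in non-dividing cells, and ribosomal protein genes took 27.4% of the pooled UMIs in S-phase cells and 23.6% in non-dividing cells. A rule of at least 5 UMIs favours cells with many UMIs, and 53 of the 352 S-phase cells were among the 642 cells with the highest doublet scores. Counts in thinned cells are given at the close. Removing the 642 cells moved none of the main counts or cluster shares past the limits used there.

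The 5 replication genes chose the cells, so their values are a description. UHRF1 was detected in 96.0% of the S-phase cells, PCLAF in 81.8%, MCM5 in 81.3%, CDT1 in 75.9% and TK1 in 70.7%. PCLAF, a protein that binds PCNA, stood at 764 CPM in S-phase cells and 1181 CPM in G2/M-phase cells. TK1, which makes thymidine monophosphate, stood at 250 CPM in S-phase and 525 CPM in G2/M-phase cells. MCM5, a helicase subunit, stood at 313 CPM in S-phase cells and 131 CPM in G2/M-phase cells, and CDT1 at 216 CPM in S-phase and 126 CPM in G2/M-phase cells. The G2/M-phase cells were 840 cells of the same library with at least 5 UMIs of the mitotic genes, and 712 of them also had at least 5 UMIs of the replication genes.

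**Figure D1:**
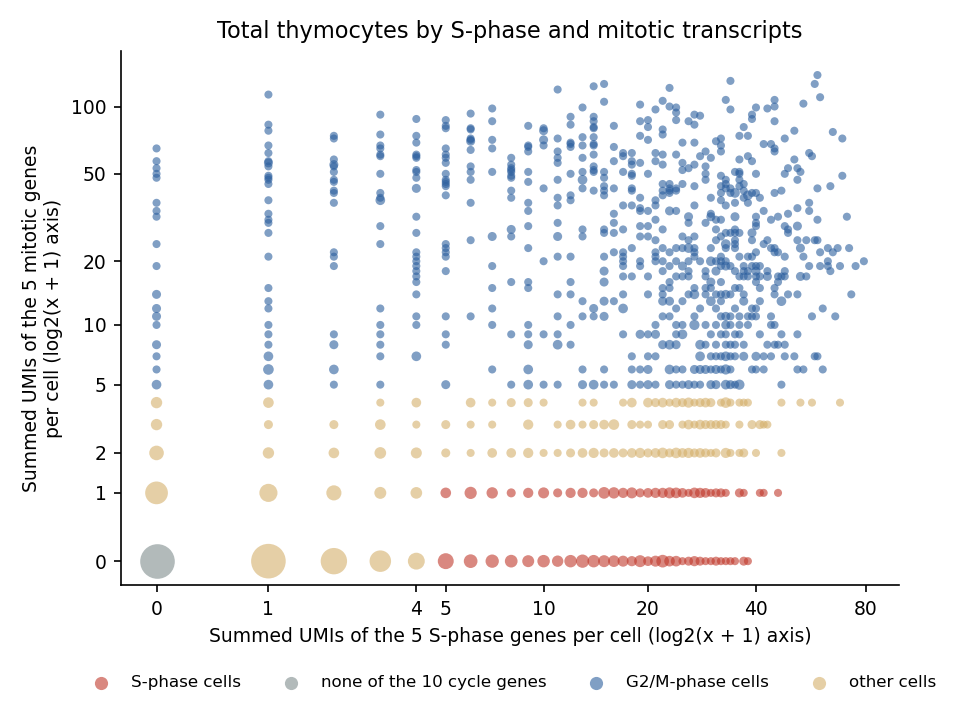
Total thymocytes with fewer than 100 HBB UMIs, by the summed UMIs per cell of the 5 replication genes (horizontal) and of the 5 mitotic genes (vertical), both on log2(x + 1) axes. Point area grows with the number of cells at that position up to a cap; red marks the S-phase cells with 5 to 46 replication UMIs, blue the G2/M-phase cells, grey the cells with neither kind of transcript (with or without HBB), and tan all other cells.

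The median S-phase cell had 14 replication UMIs, with a range of 5 to 46. Mitotic UMIs numbered 0 in 229 cells and 1 in 123 cells. Of all 1257 cells with at least 5 replication UMIs, 28.0% were S-phase cells by the rule. Of the others, 904 were left out for 2 or more mitotic UMIs, and the last cell had both those and HBB over the limit. The HBB limit alone excluded 0 cells. At the lower edge, 39 cells had exactly 5 replication UMIs and a median of 4327 UMIs in all. Just outside it, 52 cells had 4 replication UMIs and a median of 3240 UMIs. The label of mitotic silence holds for the genes in the rule, whose summed level was 47.6 CPM in S-phase cells and 3279 CPM in G2/M-phase cells. It holds less for the rest of the mitotic programme, as given further on.

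The stage of the S-phase cells was read from genes outside the rule. The non-dividing cells were clustered on their own, without cell cycle genes, into 13 clusters, and each S-phase cell was given to the cluster whose summed profile it matched best over 2000 variable genes. Of the non-dividing cells, 88.7% returned to their own cluster in this way, and all groups below were placed by it. The 2000 genes include the stage markers, so stage markers that differ between clusters are a description of how the clusters were made. Cluster 1 was double-positive-like, with all 11 measured markers of the stage with both CD4 and CD8. Its leading gene was TTK, a mitotic kinase, and AQP3 and ELOVL4 were also among its top 10 genes. Pooled over all clusters, TTK stood at 8.90 CPM in S-phase cells, 95.5 CPM in G2/M-phase cells and 3.08 CPM in non-dividing cells. These are not the levels within cluster 1, whose non-dividing cells were thus marked by a mitotic gene outside the rule. Cluster 5 was pre-TCR-like, with all 6 measured markers of cells that assemble the pre-T cell receptor and the surrogate light chain gene VPREB1 among its top genes. Cluster 8 held markers of several classes, was led by NPY, FCRL6, MDK, KLRG1 and KIT, and was not named.

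The S-phase cells fell almost wholly into these clusters. Cluster 1 took 179 of them, or 50.9% (45.5 to 56.2%). Cluster 5 took 107, or 30.4% (25.6 to 35.5%), and cluster 8 took 50, or 14.2% (10.7 to 18.3%). Together the clusters held 336 of the 352 S-phase cells, or 95.5% (92.7 to 97.4%), against 797 of 840 G2/M-phase cells, or 94.9%, and 1357 of 4567 non-dividing cells, or 29.7%. The other 16 S-phase cells were spread over 7 clusters, with 5 of them in the gamma-delta-like cluster 6. The order of clusters 1 and 5 depended on the minimum of replication UMIs. With a minimum of 3, cluster 1 held 39.6% and cluster 5 held 41.3%. Of the 52 cells with 4 replication UMIs, 17.3% fell in cluster 1 and 63.5% in cluster 5.

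**Figure D2:**
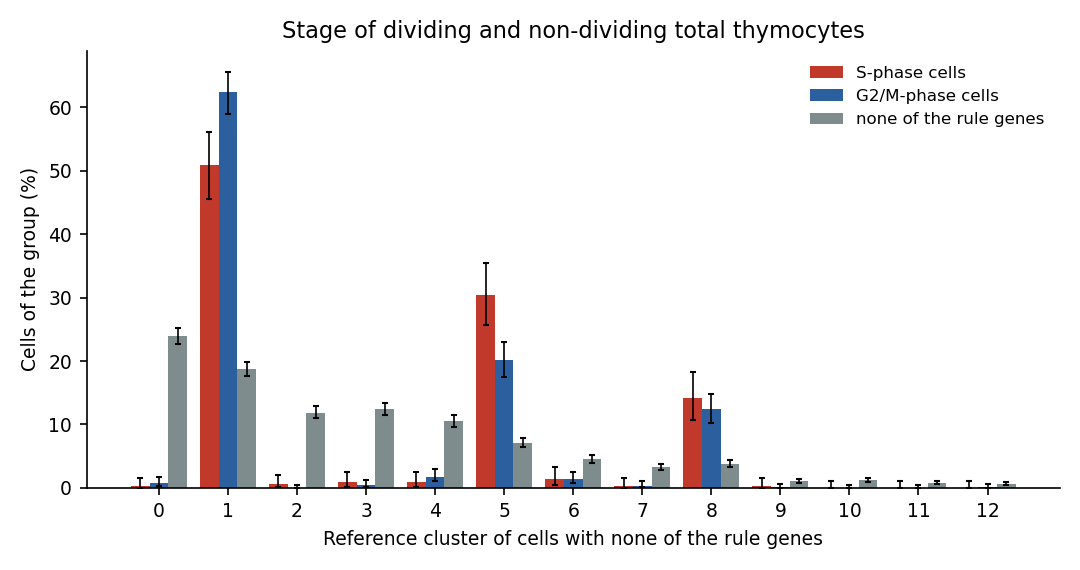
Share of S-phase cells (red), G2/M-phase cells (blue) and non-dividing cells (grey) placed in each of the 13 reference clusters, in percent of the group; bars start at 0 and error bars are exact 95% binomial intervals. S-phase cells were at 50.9% in cluster 1, 30.4% in cluster 5 and 14.2% in cluster 8, while cluster 0 and clusters 2 to 4, which hold many non-dividing cells, held few.

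Stages after selection were nearly empty of S-phase cells. Clusters 2, 3 and 4, of which clusters 2 and 4 were post-selection-like, held 8 S-phase cells, or 2.27% (0.986 to 4.43%), against 1589 non-dividing cells, or 34.8%. Cluster 0, the other double-positive-like cluster, held 1 S-phase cell among its 1514 cells, while in cluster 1 the S-phase cells made up 8.51% of all cells. Non-dividing cells had a median of 1029 UMIs in cluster 0 and 1653 in cluster 1. Whether S phase in cluster 0 was missed at low depth was not tested. The S-phase cells made up 7.98% of cluster 5 and 10.8% of cluster 8. The G2/M-phase cells made up 24.9% of cluster 1, 12.6% of cluster 5 and 22.5% of cluster 8, so there were 2.93, 1.58 and 2.08 G2/M-phase cells for each S-phase cell.

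Double-positive-like S-phase cells carried CD8 more often than CD4. To compare detection at 1 depth, each cell was thinned to 2000 UMIs, which left out 4 of 179 S-phase cells and 615 of 856 non-dividing cells of cluster 1. After thinning, CD8A or CD8B without CD4 was detected in 64.6% of the S-phase cells (57.0 to 71.6%), against 45.6% of the non-dividing cells (39.2 to 52.2%). Both coreceptors were detected in 22.3% of the S-phase cells (16.4 to 29.2%), against 50.6% of the non-dividing cells (44.1 to 57.1%). CD4 without CD8 was detected in 2.86% of the S-phase cells and 1.66% of the non-dividing cells. Neither was detected in 10.3% of the S-phase cells and 2.07% of the non-dividing cells.

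In cluster 1 the coreceptor genes differed from each other in this respect. CD8B was detected in 84.0% of S-phase cells and 87.1% of non-dividing cells, and CD4 in 25.1% of S-phase and 52.3% of non-dividing cells. Without thinning, CD8B was detected in 97.8% of S-phase cells and 89.4% of non-dividing cells, and CD4 in 51.4% of S-phase and 57.9% of non-dividing cells. Median depths were 5808 UMIs in S-phase and 1653 UMIs in non-dividing cells. Non-dividing cells of the gamma-delta-like cluster 6 were taken as a low reference. Whether they make these transcripts themselves was not tested. Their thinned shares were 5.88% for CD8B and 2.45% for CD4. The unthinned ones were 11.6% and 5.31%, at a median depth of 4243 UMIs. The thinned shares of cluster 1 lay above this reference for both genes.

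Within cluster 1 the genes of the resting double-positive stage took a lower share of UMIs in S-phase than in non-dividing cells, and PTCRA did not. With median depths of 5808 UMIs in S-phase and 1653 UMIs in non-dividing cells, a lower share need not mean fewer transcripts per cell. CD4 stood at 135 CPM in S-phase cells (115 to 158), against 517 CPM in non-dividing cells (481 to 554), and was 3.82-fold lower (3.21 to 4.57). CD8A stood at 247 CPM in S-phase and 720 CPM in non-dividing cells. CD8B stood at 738 CPM in S-phase cells and 1462 CPM in non-dividing cells, a 1.98-fold difference that stayed just short of the call. CD1E, a lipid-presenting molecule of cortical thymocytes, stood at 73.7 CPM in S-phase cells against 405 CPM in non-dividing cells. CCR9, a chemokine receptor of thymocytes, stood at 24.6 CPM in S-phase and 327 CPM in non-dividing cells and was 13.3-fold lower (9.09 to 20.2). PTCRA stood at 423 CPM in S-phase cells (386 to 463), against 282 CPM in non-dividing cells (256 to 310), a ratio of 1.5. Of the 11 double-positive markers, 0 were called higher and 10 lower within cluster 1, where 9.41% of 3463 genes were called higher and 17.6% lower.

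RAG1 and DNTT took a lower share of UMIs in S-phase cells of both named clusters. In cluster 1, RAG1, the catalytic subunit of the recombinase, stood at 171 CPM in S-phase cells and 626 CPM in non-dividing cells, and was 3.66-fold lower (3.13 to 4.29). Its partner RAG2 stood at 122 CPM in S-phase and 296 CPM in non-dividing cells, and DNTT, the polymerase that adds untemplated bases at junctions, at 58.8 CPM in S-phase and 235 CPM in non-dividing cells. In cluster 5, RAG1 stood at 264 CPM in S-phase cells and 1095 CPM in non-dividing cells, and was 4.15-fold lower (3.56 to 4.85). RAG2 stood at 175 CPM in S-phase and 317 CPM in non-dividing cells there, a difference below the call. DNTT stood at 405 CPM in S-phase cells of cluster 5 (362 to 452), against 1279 CPM in non-dividing cells. In cluster 1, RAG1 was detected in 34.9% of S-phase and 57.3% of non-dividing cells after thinning. Without thinning the shares were 55.3% of S-phase and 60.7% of non-dividing cells.

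**Figure D3:**
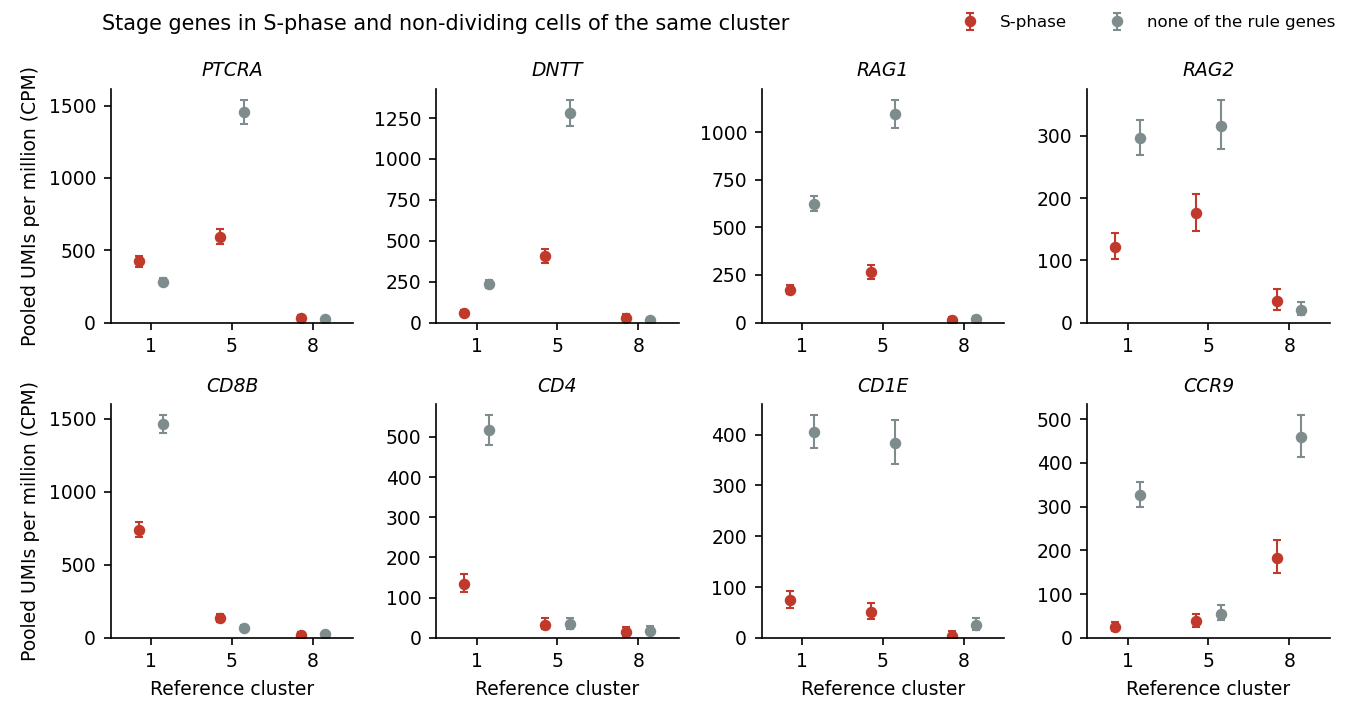
Level in CPM of 8 stage genes in clusters 1, 5 and 8, with S-phase cells (red) to the left of non-dividing cells (grey); points are pooled values and bars exact 95% Poisson intervals, with linear axes from 0. RAG1 in cluster 1 was at 171 CPM in S-phase and 626 CPM in non-dividing cells, and PTCRA in cluster 5 at 592 CPM in S-phase and 1452 CPM in non-dividing cells.

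In the pre-TCR-like S-phase cells of cluster 5, most of the genes that mark the cluster took a lower share of UMIs. Median depths there were 6732 UMIs in S-phase and 2164 UMIs in non-dividing cells, so the cells need not have held fewer transcripts. PTCRA stood at 592 CPM in S-phase cells (540 to 648), against 1452 CPM in non-dividing cells, and was 2.45-fold lower (2.20 to 2.74). VPREB1 stood at 104 CPM in S-phase and 250 CPM in non-dividing cells and NOTCH3, a Notch receptor, at 48.3 CPM in S-phase and 149 CPM in non-dividing cells. HES1, a target of Notch signals, stood at 309 CPM in S-phase and 469 CPM in non-dividing cells and was not called. Of the 5 pre-TCR markers measured well enough in cluster 5, 4 were called lower, where 8.84% of 2275 genes were called lower and 5.45% higher. KIT, the stem cell factor receptor of early progenitors, stood at 38.1 CPM in S-phase cells (25.7 to 54.4), against 7.54 CPM in non-dividing cells (2.77 to 16.4), which was 30 UMIs in S-phase cells and 6 in non-dividing cells, fewer than the 100 UMIs over both groups needed for a call. CD8B stood at 133 CPM in S-phase cells and 67.8 CPM in non-dividing cells, a ratio of 1.97 (1.40 to 2.78).

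Detection per cell in cluster 5 followed the pooled levels. After thinning, which left out 2 of 107 S-phase cells and 114 of 326 non-dividing cells, DNTT was detected in 55.2% of S-phase cells (45.2 to 65.0%) and 87.7% of non-dividing cells. Without thinning, DNTT was detected in 77.6% of S-phase and 94.5% of non-dividing cells, at median depths of 6732 UMIs in S-phase and 2164 UMIs in non-dividing cells. RAG1 was detected in 33.3% of S-phase and 75.9% of non-dividing cells after thinning, and in 72.0% of S-phase and 83.4% of non-dividing cells without. In non-dividing cells of cluster 6 the thinned shares were 0.980% for DNTT and 2.94% for RAG1, and the unthinned ones 2.42% and 5.80%. Most cells of cluster 5 had neither CD4 nor CD8 after thinning, with 76.2% of S-phase cells and 84.4% of non-dividing cells.

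The 50 S-phase cells of cluster 8 had the highest median UMI total of the main clusters, 10129, against 4386 in the 175 non-dividing cells placed there. After thinning, which left out 0 S-phase cells and 3 non-dividing cells, 96.0% of S-phase cells (86.3 to 99.5%) and 84.9% of non-dividing cells had neither CD4 nor CD8. RAG1 stood at 15.2 CPM in S-phase cells and 19.9 CPM in non-dividing cells. KIT stood at 64.7 CPM in S-phase cells and 55.9 CPM in non-dividing cells. BLK, a kinase that in mice marks gamma-delta cells, stood at 187 CPM in S-phase and 214 CPM in non-dividing cells, and ETV5, a transcription factor of such cells in mice, at 53.3 CPM in S-phase and 44.7 CPM in non-dividing cells. RAG1, KIT and ETV5 had fewer than 100 UMIs over both groups here, so no call was made. KLF2, a transcription factor of mature T cells, stood at 41.9 CPM in S-phase cells and 461 CPM in non-dividing cells, and was lower by a factor between 7.16 and 17.8. IKZF2 stood at 476 CPM in S-phase and 1526 CPM in non-dividing cells. Here 6.98% of 1919 genes were called higher and 13% lower.

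Across all stages, 7889 genes had at least 100 UMIs over S-phase and non-dividing cells, of which 480, or 6.08%, were called higher and 1297, or 16.4%, lower in S-phase cells. The rule used this contrast, and genes of the cell cycle move with the genes it used, so the ratios below describe the cells and support nothing further. Scaling by the trimmed mean of M-values raised every log2 ratio by 0.22, where the median of all genes lay at -0.29, and gave 695 genes higher and 867 lower. Each list below can be read beside that median.

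Origin licensing and helicase genes stood highest as a list. Of 22 genes, 21 passed the minimum, 20 of them were called higher and 0 lower, with a median log2 ratio of 4.01. The minimum was on the UMIs of both groups together, so genes that needed their S-phase UMIs to reach it were more likely to be higher there. In this list 8 of the 21 reached it in non-dividing cells alone, and 7 of these were called higher. CDC6, which loads the helicase, stood at 55.3 CPM in S-phase cells and 0.288 CPM in non-dividing cells, where it had 3 UMIs, a ratio of 192 (64.3 to 941). MCM3 stood at 191 CPM in S-phase and 2.79 CPM in non-dividing cells (ratio 68.4, 47.0 to 103), MCM2 at 147 CPM in S-phase and 2.69 CPM in non-dividing cells, and MCM4 at 238 CPM in S-phase and 7.21 CPM in non-dividing cells. MCM10, which helps to fire origins, stood at 59.6 CPM in S-phase and 0.769 CPM in non-dividing cells. DBF4, the activator of the origin-firing kinase CDC7, was the exception of the list, with 33.3 CPM in S-phase cells and 30.1 CPM in non-dividing cells (ratio 1.11, 0.861 to 1.41).

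Polymerase, clamp and fork genes came next. Of 25 genes 24 had a symbol in the files and 21 passed the minimum, and of these 17 were called higher and 0 lower, with a median log2 ratio of 2.29. Of the 17 genes that reached the minimum in non-dividing cells alone, 13 were called higher. PCNA, the sliding clamp, stood at 942 CPM in S-phase cells (904 to 980), against 56.4 CPM in non-dividing cells (52.0 to 61.2), a ratio of 16.7 (15.2 to 18.3). LIG1, which joins the fragments of the lagging strand, stood at 142 CPM in S-phase and 6.44 CPM in non-dividing cells, and PRIM1, a primase subunit, at 138 CPM in S-phase and 7.02 CPM in non-dividing cells. POLE3 at 163 CPM in S-phase and 99.3 CPM in non-dividing cells and RNASEH2A at 12 CPM in S-phase and 10.6 CPM in non-dividing cells were not called.

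Nucleotide supply was less uniform. Of the 19 genes measured, 10 were called higher and 1 lower, with a median log2 ratio of 1.02. DUT, which removes dUTP, stood at 1049 CPM in S-phase cells (1009.97 to 1089) and 58.9 CPM in non-dividing cells (54.3 to 63.7), a ratio of 17.8 (16.3 to 19.5). SHMT1, which feeds one-carbon units to thymidylate, stood at 253 CPM in S-phase and 43.1 CPM in non-dividing cells. SAMHD1, which breaks down deoxynucleotides, went the other way with 1.16 CPM in S-phase cells, from 3 UMIs, and 23.3 CPM in non-dividing cells, and was lower by a factor between 6.78 and 97.9. GART, an enzyme of purine synthesis, stood at 16.3 CPM in S-phase and 21 CPM in non-dividing cells and was not called.

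Regulators of entry into S phase were called in both directions. Of the 18 genes measured of the G1/S cyclins, kinases, inhibitors and E2F factors, 11 were called higher and 3 lower, with a median log2 ratio of 1.76. Of the 13 that reached the minimum in non-dividing cells alone, 6 were called higher and 3 lower. E2F1, a transcription factor of replication genes, stood at 82.4 CPM in S-phase cells and 1.25 CPM in non-dividing cells (ratio 65.9, 37.7 to 126). CCNE2, the cyclin that starts S phase, stood at 72.8 CPM in S-phase and 9.23 CPM in non-dividing cells, and FBXO5, an inhibitor of the anaphase-promoting complex, at 61.1 CPM in S-phase and 3.37 CPM in non-dividing cells. The 3 lower genes were CCND2, CDKN1B and RBL2. CCND2, a cyclin of G1, stood at 12 CPM in S-phase cells against 46.1 CPM in non-dividing cells, and the kinase inhibitor CDKN1B at 38.7 CPM in S-phase and 88.3 CPM in non-dividing cells. RBL2, a repressor of E2F targets in resting cells, stood at 32.9 CPM in S-phase cells and 87.6 CPM in non-dividing cells.

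Genes of chromatin copying and of repair were also mostly higher. Of 20 chromatin genes measured, 19 were called higher and 0 lower, and of 19 repair and checkpoint genes 16 were called higher and 0 lower. Among the 17 chromatin genes that reached the minimum in non-dividing cells alone 16 were called higher, and among the 8 such repair genes 6. ASF1B, a histone chaperone, stood at 46.8 CPM in S-phase cells and 0.769 CPM in non-dividing cells. DNMT1, which copies methylation onto new strands, stood at 398 CPM in S-phase and 84.1 CPM in non-dividing cells, and the histone variant gene H2AFZ at 1751 CPM in S-phase and 394 CPM in non-dividing cells. EED at 40.6 CPM in S-phase and 30.4 CPM in non-dividing cells and ATR at 15.5 CPM in S-phase and 18.1 CPM in non-dividing cells were not called.

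**Figure D4:**
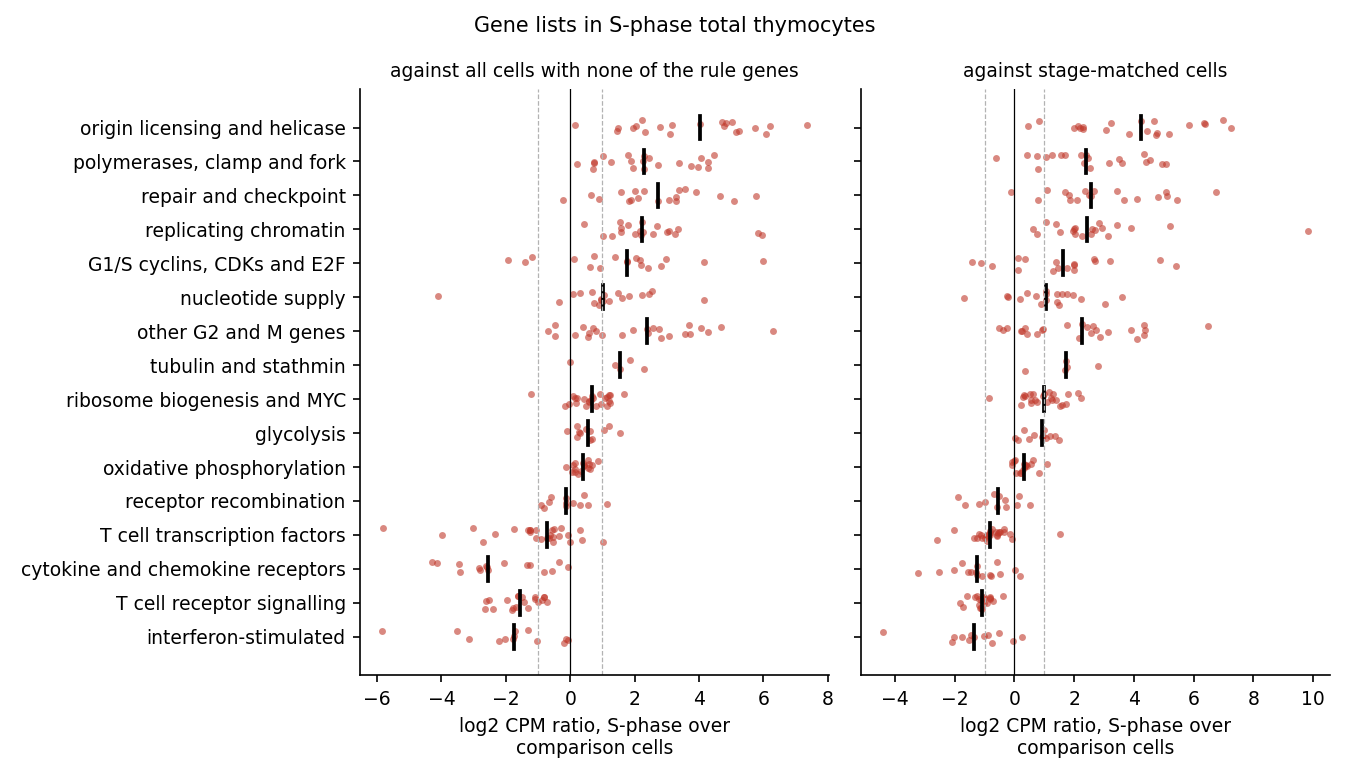
log2 of the CPM ratio of S-phase cells over all non-dividing cells (left) and over stage-matched non-dividing cells (right) for each measured gene of 16 lists, with 0.5 UMI added to each sum; black ticks are list medians and dashed lines the 2-fold calls. Origin licensing and helicase genes have the highest medians, 4.01 on the left and 4.25 on the right, and T cell receptor signalling lies at -1.56 and -1.10.

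Transcripts of G2 and M genes outside the rule were present in S-phase cells. Of 73 further G2 and M genes, 67 had a symbol and 25 passed the minimum, and 15 of these were called higher and 0 lower than in non-dividing cells. Of the 15 genes that reached the minimum in non-dividing cells alone, 6 were called higher and 0 lower. As a sum the list stood at 2353 CPM in S-phase cells, 13986 CPM in G2/M-phase cells and 718 CPM in non-dividing cells. TOP2A, which untangles sister chromatids, stood at 39.9 CPM in S-phase cells, 925 CPM in G2/M-phase cells and 3.37 CPM in non-dividing cells. SPC24, a kinetochore protein, stood at 205 CPM in S-phase cells and 7.98 CPM in non-dividing cells, and the kinase gene PBK at 87.5 CPM in S-phase and 1.06 CPM in non-dividing cells. TUBA1B, an alpha tubulin, stood at 2182 CPM in S-phase cells and 447 CPM in non-dividing cells, though reads of near-identical tubulin copies cannot be told apart here. G2E3 at 19.3 CPM in S-phase and 31.2 CPM in non-dividing cells and CKAP5 at 18.6 CPM in S-phase and 26.3 CPM in non-dividing cells were not called.

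Ribosome biogenesis genes were higher in part. Of 25 such genes measured, 8 were called higher and 1 lower, with a median log2 ratio of 0.68. DKC1, which modifies ribosomal RNA, stood at 188 CPM in S-phase cells and 58.9 CPM in non-dividing cells (ratio 3.19, 2.83 to 3.60). MYC, a driver of cell growth, stood at 64.2 CPM in S-phase and 41.3 CPM in non-dividing cells and was not called, while its partner MAX was the lower gene, with 73.5 CPM in S-phase and 173 CPM in non-dividing cells. TFRC, the transferrin receptor for iron uptake, stood at 38.3 CPM in S-phase cells and 12 CPM in non-dividing cells. Of 12 glycolysis genes 3 were called higher, with PFKL at 51.1 CPM in S-phase and 17.4 CPM in non-dividing cells and GAPDH at 3714 CPM in S-phase and 1811 CPM in non-dividing cells. Of 17 oxidative phosphorylation genes 0 were called in either direction, with a median log2 ratio of 0.40 and COX5A at 419 CPM in S-phase cells and 232 CPM in non-dividing cells.

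T cell receptor signalling genes were lower in S-phase cells. Of 20 measured, 0 were called higher and 15 lower, with a median log2 ratio of -1.56. As a sum they stood at 2850.1 CPM in S-phase cells and 7221 CPM in non-dividing cells. CD3E, a chain of the receptor complex, stood at 716 CPM in S-phase cells (684 to 749), against 1512 CPM in non-dividing cells (1488 to 1536). FYN, a proximal kinase, stood at 21.7 CPM in S-phase and 138 CPM in non-dividing cells and was 6.38-fold lower (4.88 to 8.48), and the costimulatory receptor CD28 stood at 8.51 CPM in S-phase and 53.0 CPM in non-dividing cells. SH2D1A, the adaptor SAP, stood at 341 CPM in S-phase and 565 CPM in non-dividing cells and VAV1 at 44.1 CPM in S-phase and 77.6 CPM in non-dividing cells, and neither was called. Within clusters the count of lower genes was 12 of 14 in cluster 1, 2 of 10 in cluster 5 and 7 of 12 in cluster 8. Of all genes measured in these clusters, 17.6%, 8.84% and 13% were called lower, and the count in cluster 5 lay closest to its share.

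Genes of later stages followed. Of 16 cytokine and chemokine receptors measured, 12 were called lower and 0 higher, among them S1PR1, the exit receptor, with 0.774 CPM in S-phase cells and 19.0 CPM in non-dividing cells. IL7R, the interleukin-7 receptor, stood at 151 CPM in S-phase and 158 CPM in non-dividing cells and CXCR4 at 334 CPM in S-phase and 426 CPM in non-dividing cells, and neither was called. Of 27 T cell transcription factors 1 was called higher and 12 lower. The higher one was LYL1, a factor of early progenitors, with 42.6 CPM in S-phase cells and 21.1 CPM in non-dividing cells. TOX2 stood at 7.74 CPM in S-phase and 125 CPM in non-dividing cells. MEF2C was at 0 UMIs in S-phase cells and 10.8 CPM in non-dividing cells. Of 13 interferon-stimulated genes 10 were called lower and 0 higher, with ISG15 at 18.2 CPM in S-phase cells and 164 CPM in non-dividing cells.

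Most measured markers of other cell kinds were called lower in S-phase cells than in all non-dividing cells. Of the markers measured well enough, 5 of 6 for gamma-delta cells, 8 of 8 for cytotoxic or NK cells, 4 of 4 for regulatory T cells, 4 of 4 for myeloid cells and 3 of 4 for B cells were called lower. For gamma-delta cells the count was 4 of 6 against stage-matched cells. Within cluster 8 only BLK was measured well enough, and it was not called. Of 3 early progenitor markers, KIT and LYL1 were called higher and MEF2C lower. Of the post-selection markers 10 of 11 were called lower, and of the mature T cell markers 7 of 8, with CCR7 at 15.9 CPM in S-phase cells and 177 CPM in non-dividing cells. The summed cytotoxic or NK markers stood at 80.1 CPM in S-phase cells and 487 CPM in non-dividing cells, with 4 of 10 at 0 in S-phase cells. Of these sums CCL5 gave 37.9 CPM in S-phase and 134 CPM in non-dividing cells, and 97 of its 98 UMIs in S-phase cells lay in the third of 4 equal bins of cells ordered by their share of replication UMIs. The summed myeloid or dendritic markers stood at 12.8 CPM in S-phase and 291 CPM in non-dividing cells, with 4 of 9 at 0. The B cell and plasma cell markers stood at 191 CPM in S-phase and 281 CPM in non-dividing cells, of which CD79A alone gave 173 CPM in S-phase and 189 CPM in non-dividing cells, while MS4A1, PAX5 and CD79B were at 0 in S-phase cells. The stromal and epithelial markers stood at 8.90 CPM in S-phase and 7.50 CPM in non-dividing cells, with 7 of 8 at 0 in S-phase cells. The erythroid ones stood at 4.26 CPM in S-phase cells and 0.288 CPM in non-dividing cells, where the rule had put HBB at 0.

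Among genes with a symbol, and after CDC6, the highest ratios of S-phase over non-dividing cells belonged to PKMYT1, RMI2, ZNF367, PBK, MCM10, MCM3, TCF19, MYBL2, E2F1, CENPU and ASF1B, which ran from 186 for PKMYT1 to 60.9 for ASF1B. PKMYT1, a kinase that holds the mitotic cyclin-dependent kinase inactive, stood at 53.8 CPM in S-phase cells and 0.288 CPM in non-dividing cells (62.5 to 915). RMI2, a partner of the BLM helicase, stood at 61.1 CPM in S-phase and 0.673 CPM in non-dividing cells (43.1 to 230). The 12 lowest genes with a symbol were all at 0 UMIs in S-phase cells, where 3 UMIs would be 1.16 CPM. S100A12, a gene of neutrophils and monocytes, stood at 83.9 CPM in non-dividing cells, so that S-phase cells were at least 72.2-fold lower. For the others the bound ran from at least 42.1-fold lower for S100A8 to at least 9.69-fold lower for CFD, and they were CCL17, CCL4, LTF, PGLYRP1, CXCL10, IFNGR2, GNLY, RETN and CD22.

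Weighting the non-dividing cells to the cluster make-up of the S-phase cells left the median log2 ratio of origin licensing and helicase genes at 4.25, against 4.01 before weighting. The median of double-positive markers was -1.31 with weighting and -0.62 without, and that of pre-TCR markers -1.26 with and 0.11 without. For post-selection markers it was -1.13 with weighting and -1.74 without, and for mature T cell markers -1.15 with and -3.41 without. These stage-matched levels are weighted and carry no interval. Of 7889 genes 549, or 6.96%, were called higher and 1200, or 15.2%, lower, with a median over all of -0.32. Scaling by the trimmed mean of M-values raised every log2 ratio by 0.25 and gave 791 higher and 655 lower. Origin licensing and helicase genes were called higher in 19 of 21. GINS2, a helicase subunit, stood at 174 CPM in S-phase cells, 98.7 CPM in stage-matched cells and 62.0 CPM in all non-dividing cells. The highest ratios belonged to CENPU, PKMYT1, CDC6, TCF19, MCM3 and BRCA2, with BRCA2, a repair gene, at 53.8 CPM in S-phase cells and 0.449 CPM in stage-matched cells.

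Against stage-matched cells, double-positive markers were called lower in 8 of 11 and pre-TCR markers in 4 of 6. PTCRA stood at 378 CPM in S-phase cells, 572 CPM in stage-matched cells and 171 CPM in all non-dividing cells. RAG1 stood at 164 CPM in S-phase cells, against 615 CPM in stage-matched cells, and DNTT at 159 CPM in S-phase and 498 CPM in stage-matched cells. CD1E stood at 49.9 CPM in S-phase cells, against 306 CPM in stage-matched cells. Ribosome biogenesis genes were called higher in 12 of 25, and MYC stood at 64.2 CPM in S-phase cells against 14.7 CPM in stage-matched cells. T cell receptor signalling genes were called lower in 14 of 20.

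S-phase and G2/M-phase cells differed by 2-fold in few of the genes measured, and nearly all further G2 and M genes were among them. Of 6990 genes 66, or 0.944%, were called higher and 291, or 4.16%, lower in S-phase cells. The rule fixed the level of the mitotic genes, and 65 of 67 further G2 and M genes were called lower. KIF20A, a kinesin of cytokinesis, was at 0 UMIs in S-phase cells and 65.5 CPM in G2/M-phase cells, so at least 56.5-fold lower. CCNB3, DEPDC1B, PRC1 and PIF1 were also at 0 in S-phase cells, and DLGAP5, a spindle protein, stood at 1.55 CPM in S-phase cells and 203 CPM in G2/M-phase cells. TUBB4B stood at 83.2 CPM in S-phase and 1243 CPM in G2/M-phase cells and HMGB2, a chromatin protein, at 1179.5 CPM in S-phase and 4310 CPM in G2/M-phase cells, where G2/M-phase cells had a median of 8274.5 UMIs.

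Few replication genes were called in either direction, as among all 6990 genes, of which 0.944% were called higher and 4.16% lower. At these shares a count of 0 says little about a list. Of the polymerase, clamp and fork genes 0 of 22 were called, of the nucleotide supply genes 0 of 19, of the replicating chromatin genes 0 of 22 higher and 5 lower, and of the repair and checkpoint genes 1 of 22 in each direction. UNG, which removes uracil from DNA, stood at 312 CPM in S-phase cells (290 to 334), 78.6 CPM in G2/M-phase cells and 32.1 CPM in non-dividing cells. Its ratio over G2/M-phase cells was 3.97 (3.57 to 4.41). MCM2 stood at 147 CPM in S-phase cells and 50.6 CPM in G2/M-phase cells (ratio 2.9, 2.52 to 3.34), and E2F1 at 82.4 CPM in S-phase and 28.9 CPM in G2/M-phase cells (ratio 2.85, 2.36 to 3.45). DTL, which targets CDT1 for destruction, stood at 48.8 CPM in S-phase and 17.5 CPM in G2/M-phase cells, and CD3EAP, a subunit of RNA polymerase I, at 37.1 CPM in S-phase and 13.1 CPM in G2/M-phase cells. KIT stood at 25.9 CPM in S-phase cells, 8.67 CPM in G2/M-phase cells and 7.02 CPM in non-dividing cells (ratio over G2/M 2.99, 2.11 to 4.24). Of 22 origin licensing and helicase genes 2 were called higher and 1 lower in S-phase cells, the lower one being DBF4 at 33.3 CPM in S-phase and 147 CPM in G2/M-phase cells. Among T cell receptor signalling genes 0 of 19 were called, with a median log2 ratio of -0.15.

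The same rule found fewer S-phase cells in the iNKT library. They numbered 94 of 11273, or 0.834% (0.674 to 1.02%), so that the share among total thymocytes was 5.26 times as high. Bead selection and cell kind cannot be told apart in this comparison. The S-phase iNKT cells held 877172 UMIs, with a median of 8468 per cell. Of 4087 genes, 393, or 9.62%, were called higher and 353, or 8.64%, lower in S-phase total thymocytes. FABP6, CD8B, PTCRA, RAG1, DNTT and RAG2 were all at 0 in S-phase iNKT cells, where 3 UMIs would be 3.42 CPM. FABP6, a bile acid binding protein, stood at 1339.7 CPM in S-phase total thymocytes, at least 391.7-fold higher, and CD8B at 381 CPM, at least 111-fold higher. RAG1 at 164 CPM was at least 48.0-fold higher. ZBTB16, which encodes PLZF and directs the innate-like programme, stood at 0.387 CPM in S-phase total thymocytes and 212 CPM in S-phase iNKT cells, and TNFRSF4, a costimulatory receptor, at 3.1 CPM in S-phase total thymocytes and 768 CPM in S-phase iNKT cells.

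The same contrast was taken within the iNKT library. S-phase iNKT cells were set against 9231 iNKT cells in which the rule genes were all at 0, with 9142 genes measured, of which 648, or 7.09%, were called higher and 562, or 6.15%, lower. Origin licensing and helicase genes were called higher in 16 of 17, with a median log2 ratio of 3.54, and polymerase, clamp and fork genes in 17 of 22. LIG1, the ligase that joins Okazaki fragments, stood at 101 CPM in S-phase iNKT cells and 8.98 CPM in iNKT cells without the rule genes. Among T cell receptor signalling genes 0 of 20 were called, with a median log2 ratio of -0.23 and a sum of 5689 CPM in S-phase iNKT cells and 6541 CPM in the others. The difference between the libraries was not tested.

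The S-phase cells varied in how much of their RNA came from the replication genes. They were cut into 4 bins of 88 cells by replication UMIs per 10000 UMIs, with bin medians of 11.1, 16.2, 23.1 and 33. The bins use the rule genes and are a description. PCNA stood at 521, 817, 1070.2 and 1444 CPM from the lowest to the highest bin, E2F1 at 24.8, 82.8, 109 and 117 CPM, and CCNE2 at 41.9, 61.8, 85.9 and 107 CPM. UNG stayed between 268 and 345 CPM in every bin. TOP2A stood at 10.9, 22.5, 59.7 and 72.2 CPM in the same order.

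Stage moved along with these bins. Cluster 1 made up 26.1, 40.9, 56.8 and 79.5% of the cells from the lowest to the highest bin, and cluster 5 made up 43.2, 37.5, 25 and 15.9%. Cluster 8 made up 21.6, 17.0, 13.6 and 4.55%. KIT stood at 48.1, 37.9, 8.74 and 5.55 CPM and CD8B at 270, 296, 437 and 554 CPM in that order. By cluster, the median was 23.7 replication UMIs per 10000 in cluster 1, 16.1 in cluster 5 and 14.8 in cluster 8. Among the rule genes, PCLAF stood at 1049 CPM in cluster 1, 544 CPM in cluster 5 and 567 CPM in cluster 8, whereas UHRF1 was highest in cluster 5, with 677 CPM against 499.5 CPM in cluster 1 and 354 CPM in cluster 8. Median UMIs per cell were 6346.5, 7114.5, 6998 and 5866 in the bins. With cells thinned to 2000 UMIs before binning, the shifts in stage were smaller. Cluster 1 then made up 34.5% of the lowest and 69.0% of the highest bin, and cluster 5 made up 31.0% and 20.7%.

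**Figure D5:**
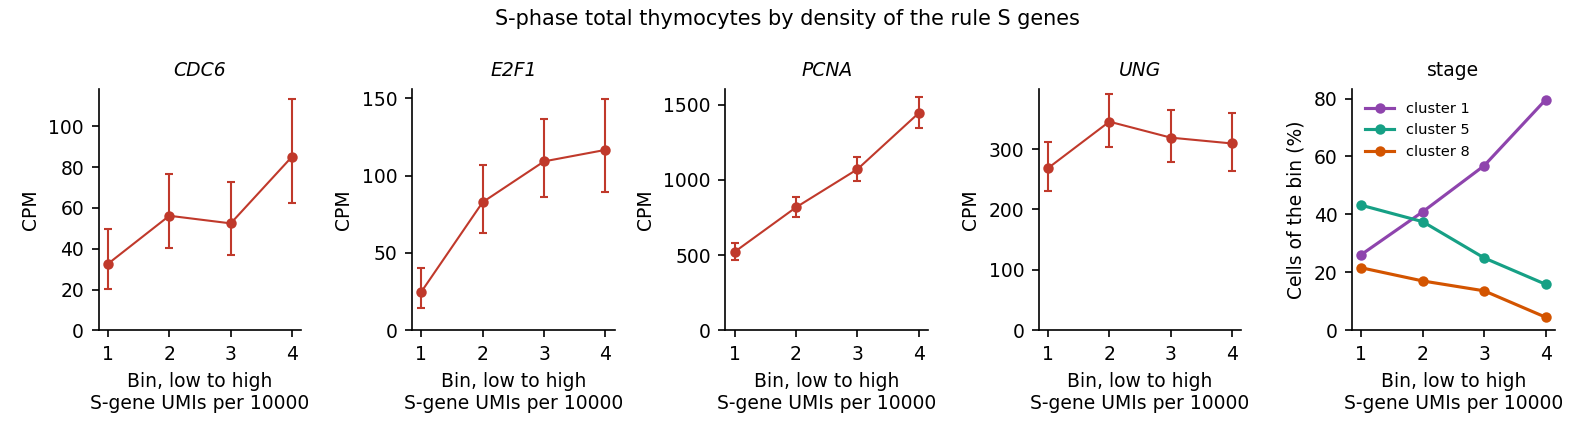
CPM of CDC6, E2F1, PCNA and UNG (points with exact 95% Poisson intervals) and the share of cells in clusters 1, 5 and 8, across 4 bins of 88 S-phase cells ordered by replication-gene UMIs per 10000 UMIs, on linear axes from 0. PCNA runs through 521, 817, 1070.2 and 1444 CPM, UNG stays between 268 and 345 CPM, and cluster 1 grows to 79.5% of the highest bin while cluster 5 shrinks to 15.9%.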

How the data were processed

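The deposited matrices hold raw UMI counts, as whole numbers, per gene and cell barcode. The genome build was not given in the sources used here. Per the submitters' processing notes, the tools were Cell Ranger 3.1 and Seurat 3.1. The members and gene lists were chosen with earlier results of these data known. The quality filter asked for 500 or more genes, and for no more than 10% of UMIs on the 13 mitochondrial genes. Of 21301 genes, 14846 had a deposited symbol, 687 took one from a table of gene names, and 5768 had none. Clusters of the non-dividing cells came from 2000 variable genes, 30 components, 15 neighbours and Leiden resolution 1 (scanpy 1.11.5, leidenalg 0.10.2). Clusters were named only from the listed markers.

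Scrublet called 0 of 8026 total thymocytes and 2 of 11273 iNKT cells, so its threshold had failed and no doublet was removed. UMIs were summed per group and scaled to CPM, over genes with at least 100 UMIs in both groups together. Ratios have conditional binomial intervals, levels Poisson intervals and shares Clopper-Pearson intervals (scipy 1.17.1). Genes named were the rule genes, all stage markers, the 2 highest and 2 lowest of each other list, the 12 highest and 12 lowest against all non-dividing cells, and 6 and 6 in each other comparison; others named from the lists were chosen after their values were seen. The ratios were checked on simulated counts. Alternatives changed thresholds, depth, scaling, doublets, clustering and the gene minimum. Some items named by this rule are not reported here.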

Additional observations from a re-analysis of the deposited data

How the results depend on the processing

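No paired analysis was possible because each group is 1 library with no replicate number to pair. Of 119 checks of the main counts and shares, 78 stayed within the set limits and 41 moved; the cause was not tested unless the setting itself leaves fewer UMIs, cells or genes. Genes higher in S-phase than in non-dividing cells (480) numbered 800 with a 20-UMI minimum, 292 with at most 5% mitochondrial UMIs, 263 in thinned cells, 176 against every other cell, 124 within cluster 5 and 134 within cluster 8. Genes lower (1297) numbered 2010 with the 20-UMI minimum, 769 thinned, 562 in the iNKT library, 610 within cluster 1, 201 within cluster 5 and 250 within cluster 8; the iNKT and within-cluster settings were chosen after seeing the data. Against stage-matched cells, genes higher (549) numbered 912 with the 20-UMI minimum, 350 with the 5% limit and 334 thinned, and genes lower (1200) numbered 634 with a replication sum of at least 3, 655 with the trimmed mean of M-values and 626 thinned. Against G2/M-phase cells, genes higher (66) numbered 120 with the sum of at least 3, 296 with the 20-UMI minimum, 42 with the 5% limit, 27 thinned and 115 with equal weight per cell, and genes lower (291) numbered 465 with the 20-UMI minimum. Against S-phase iNKT cells, genes higher (393) numbered 999 with the 20-UMI minimum, 160 with the 5% limit and 116 thinned, and genes lower (353) numbered 926, 162 and 93 in these settings, 188 with a replication sum of at least 10 and 232 with a mitotic sum of 0. The share in cluster 1 (50.9%) was 42.9% at Leiden resolution 0.5, 56.5% with the sum of at least 10 and 39.6% with at least 3; that in cluster 5 (30.4%) was 39.2%, 24.1% and 41.3%, and that in cluster 8 (14.2%) was 9.94% by Pearson correlation. In thinned cells cluster 1 made up 34.5% of the lowest and 69.0% of the highest bin, and cluster 5 made up 31.0% and 20.7%. Against every other cell, which includes the G2/M-phase cells, ASF1B reversed to -0.35 on the log2 scale and the median of the further G2 and M genes to -1.56. Of 964 other checks, 751 stayed within limits.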

Other observations

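RPA3, a subunit of the single-strand binding protein, differed by stage as well as between S-phase and non-dividing cells. It stood at 4507 CPM in S-phase cells and 1724 CPM in non-dividing cells of cluster 1, at 792 CPM in S-phase and 119 CPM in non-dividing cells of cluster 5, and at 790 CPM in S-phase and 159 CPM in non-dividing cells of cluster 8. UNG differed in its background between the clusters. It stood at 269 CPM in S-phase cells and 5.86 CPM in non-dividing cells of cluster 1, at 382 CPM in S-phase and 123 CPM in non-dividing cells of cluster 5, and at 320 CPM in S-phase and 54.7 CPM in non-dividing cells of cluster 8. CDK6, a kinase of G1, stood at 418 CPM in S-phase cells and 416 CPM in non-dividing cells of cluster 5, at 270 CPM in S-phase and 252 CPM in non-dividing cells of cluster 8, and at 86.0 CPM in S-phase and 53.4 CPM in non-dividing cells of cluster 1. NPM1, a nucleolar protein, was close to the call in all 3 clusters, with 1302 CPM in S-phase and 647 CPM in non-dividing cells of cluster 1, 1534 CPM in S-phase and 789 CPM in non-dividing cells of cluster 5, and 2027 CPM in S-phase and 958 CPM in non-dividing cells of cluster 8.

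Survival, stress, sterol and Notch genes showed mixed values against all non-dividing cells, where 6.08% of 7889 genes were called higher and 16.4% lower. Of 10 survival and death genes measured 0 were called higher and 3 lower, of 11 immediate early and heat shock genes 1 and 5, of 10 sterol and fatty acid genes 1 and 1, and of 8 Notch pathway genes 0 and 1. In lists this short, counts of 0 or 1 lie near the shares of all genes. BCL2L1, a survival gene of double-positive cells, stood at 50.3 CPM in S-phase and 113 CPM in non-dividing cells, and BCL2A1 at 7.74 CPM in S-phase and 47.4 CPM in non-dividing cells. HSPD1, a mitochondrial chaperone, stood at 285 CPM in S-phase and 133 CPM in non-dividing cells, while the immediate early gene FOS stood at 26.3 CPM in S-phase and 98.7 CPM in non-dividing cells. Among sterol genes, IDI1 stood at 116 CPM in S-phase cells and 28.8 CPM in non-dividing cells, and HMGCS1 at 4.26 CPM in S-phase and 11.1 CPM in non-dividing cells. ADAM10, a protease that acts on Notch, stood at 34.8 CPM in S-phase and 88.2 CPM in non-dividing cells, and NOTCH1 at 32.1 CPM in S-phase and 21.3 CPM in non-dividing cells.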
